A study of Mus musculus with 4 samples.

Results

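The genes described here mark liver macrophages of contrasting kinds. Clec4f, Timd4, Marco, Vsig4, Cd5l and Adgre1 mark the resident Kupffer cells. Trem2, Gpnmb, Itgax and Cd9 mark lipid-associated macrophages. Members were taken as the gene probes of the array whose gene name is one of these symbols, with Adgre1 listed under its older name Emr1. All 10 genes were found, on 11 probes, of 30439 genes or transcripts on 39429 probes in all.

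Kupffer cells are macrophages that settle in the liver sinusoids before birth, renew themselves there and clear particles, bacteria and aged blood cells from the portal blood. In a fatty liver some of them can be lost, and macrophages that derive from blood monocytes take their place. Part of the incoming cells adopt a lipid-associated programme, in which the receptor Trem2 senses lipids and dying cells, and lysosomal and lipid-handling genes are expressed together.

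RNA of mouse liver was measured on 4 one-color Agilent arrays, with 1 array in each group. All mice were male C57BL/6J on a high-fat diet (HFD) that began at 4 weeks of age, for 24 weeks per the labels. The Drp1LiKO mice carried Alb-Cre Tg/+ and Drp1 flox/flox, so that the mitochondrial fission enzyme Drp1 was deleted by a Cre recombinase under the albumin promoter, which is active in hepatocytes. The Cont mice were littermates with Drp1 flox/flox and without Cre. In each genotype, 1 liver was taken from a mouse that was fasted for 17 h and refed for 4 h. The labels of the other 2 livers give no feeding state, and they are called fasted here because the study's text describes fasted and refed livers. The series description has the mice refed, so every value called fasted rests on that reading. Whether RNA of several animals was pooled is not given in the sources used here.

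The 4 arrays lay on 1 slide and were read in 1 scan. The 75th percentile of the signal was between 357 and 722, and it was higher on the Drp1LiKO array of each pair. Between 48.7% and 58.2% of the 43020 gene spots passed the scanner software's test of being well above background, and a probe that passed is called detected here. No spot was saturated. The probe of Dnm1l, which encodes Drp1, differed by -0.21 (SE 0.20) on the log2 scale between the fasted livers and by -0.12 (SE 0.20) between the refed livers. The place of that probe relative to the deleted part of the gene is not known here, so it does not check the labels. The labelled tissue was checked on 12 hepatocyte markers, all of which were detected on every array.

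A level is given here as the log2 signal of a probe over the array's 75th percentile, where 0 is that percentile, and a difference is a difference of such levels. No group has a replicate. The standard error (SE) printed beside a difference was derived from the error model of the scanner, so it covers measurement error and not the spread between mice. A gene was counted as different at 2-fold or more, which is 1 on the log2 scale, if the brighter side was detected. Levels of different probes cannot be set against each other, so each gene is compared with itself across the 4 arrays. In bulk liver RNA, fewer cells of a type and less RNA per cell cannot be told apart.

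All 4 lipid-associated genes had higher signals in the Drp1LiKO than in the Cont liver, in the fasted and in the refed pair. Among the 6 resident Kupffer genes, Marco alone was at least 2-fold higher in both pairs. The median difference of the lipid-associated genes was 1.79 in the fasted and 1.42 in the refed pair. That of the Kupffer genes was 0.17 and 0.69. Over the 18963 genes detected on at least 1 array, the median was -0.09 and -0.06.

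**Figure D1:**
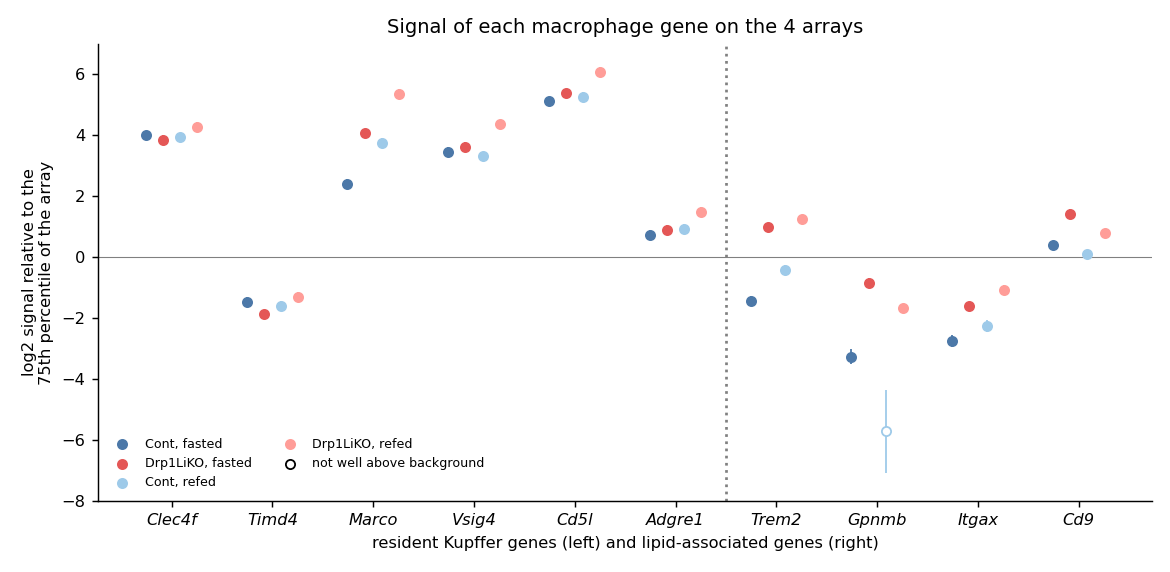
Level of each gene (log2 signal relative to the 75th percentile of the array, y axis) on the 4 arrays, with resident Kupffer genes on the left and lipid-associated genes on the right. Bars are the measurement SE and are mostly smaller than the points. The open point of Gpnmb in the refed Cont liver was not well above background. Both Drp1LiKO arrays lie above both Cont arrays for Trem2, Gpnmb, Itgax, Cd9, Marco, Vsig4 and Cd5l. Adgre1 is drawn from its brighter probe.

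Trem2 encodes the lipid-sensing receptor that marks the lipid-associated programme. Its probe lies on chromosome 17 from 48491537 to 48491596 (mm9). Its level was -1.44 in the fasted Cont, 0.99 in the fasted Drp1LiKO, -0.41 in the refed Cont and 1.24 in the refed Drp1LiKO liver. The 2 Drp1LiKO livers were above both Cont livers, and the fasted Cont liver was the lowest. The difference was 2.43 (SE 0.21), or 5.38-fold, in the fasted pair. It was 1.64 (SE 0.21), or 3.12-fold, in the refed pair. Among the 14447 genes detected on all 4 arrays, 20 others were at least as high as Trem2 in both pairs.

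Gpnmb encodes a transmembrane glycoprotein of lysosomes and melanosomes that is abundant in macrophages loaded with lipid. Its probe lies on chromosome 6 from 49006386 to 49006445 (mm9). Its level was -3.27 in the fasted Cont, -0.84 in the fasted Drp1LiKO and -1.68 in the refed Drp1LiKO liver. In the refed Cont liver the signal was not well above background. Among the 10 genes it was the only one that any array failed to detect. The difference in the fasted pair was 2.43 (SE 0.28), or 5.38-fold. In the refed pair the signal of the Drp1LiKO liver was at least 3.65-fold higher on this scale, against the lowest detected signal of the Cont array. With normexp background correction the differences were 1.41 in the fasted and 1.03 in the refed pair. The size of the Gpnmb differences thus depends on the background correction, and 3.65-fold is not a minimum under it.

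Itgax encodes the integrin alpha X chain, CD11c, which is carried by lipid-associated macrophages and by dendritic cells. Its probe lies on chromosome 7 from 135294052 to 135294111 (mm9), and its target sequence, read from the scanner files, is shown because this gene is shared between those cell types:

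Itgax probe: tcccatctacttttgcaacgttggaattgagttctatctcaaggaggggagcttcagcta

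The level of Itgax was -2.76 in the fasted Cont, -1.61 in the fasted Drp1LiKO, -2.26 in the refed Cont and -1.07 in the refed Drp1LiKO liver. Both Drp1LiKO livers were again above both Cont livers. The difference was 1.16 (SE 0.25) in the fasted and 1.19 (SE 0.24) in the refed pair. These are dim spots, with processed signals of 67.8 and 74.4 in the Cont and 237.3 and 250.5 in the Drp1LiKO livers. With normexp background correction the differences were 0.62 and 0.74, below 2-fold. Of the 8 dendritic cell markers in the lists, 7 were measured in the fasted and 6 in the refed pair, with medians of 0.18 and -0.26 when a dim side is set at its bound. Over the 7 detected on any array, with dim sides at their measured signals, the medians were 0.44 and 0.87, and with normexp -0.12 and -0.24, so their direction depends on how dim spots are read. Of these markers 4 were not detected in the fasted Cont liver and 5 in the refed Cont liver. Their part in the Itgax values was not tested.

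Cd9 encodes a tetraspanin of the cell surface that lipid-associated macrophages carry, along with many other cells such as platelets and endothelium. Its probe lies on chromosome 6 from 125410387 to 125410446 (mm9). The level of Cd9 was 0.39 in the fasted Cont, 1.43 in the fasted Drp1LiKO, 0.09 in the refed Cont and 0.79 in the refed Drp1LiKO liver. The Drp1LiKO livers were the higher ones, with the smallest gap of the 4 genes. The difference was 1.04 (SE 0.20) in the fasted and 0.70 (SE 0.21) in the refed pair, so Cd9 reached 2-fold in the fasted pair only. Under 4 other scalings the fasted difference lay between 0.98 and 1.12, at 2-fold or more in 2 of them. Of 8 mast cell and platelet markers, 4 were measured in each pair, with medians of 0.09 and 0.37, or -0.10 and -0.01 with normexp over 5 markers, and their part in the Cd9 values was not tested.

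All 4 lipid-associated genes were thus called at least 2-fold higher in the fasted pair, and 3 of them in the refed pair. Over all genes detected on at least 1 array of the pair, 8.06% were called higher in the fasted and 8.05% in the refed pair. Among genes detected on all 4 arrays the shares were 2.75% and 3.12%, and 1.24% were higher in both. For genes with a mean level below the 75th percentile, as Itgax has, 4.18% and 4.31% were called higher. Trem2 and Itgax were the members measured on all 4 arrays that were called higher in both pairs on the lipid-associated side.

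**Figure D2:**
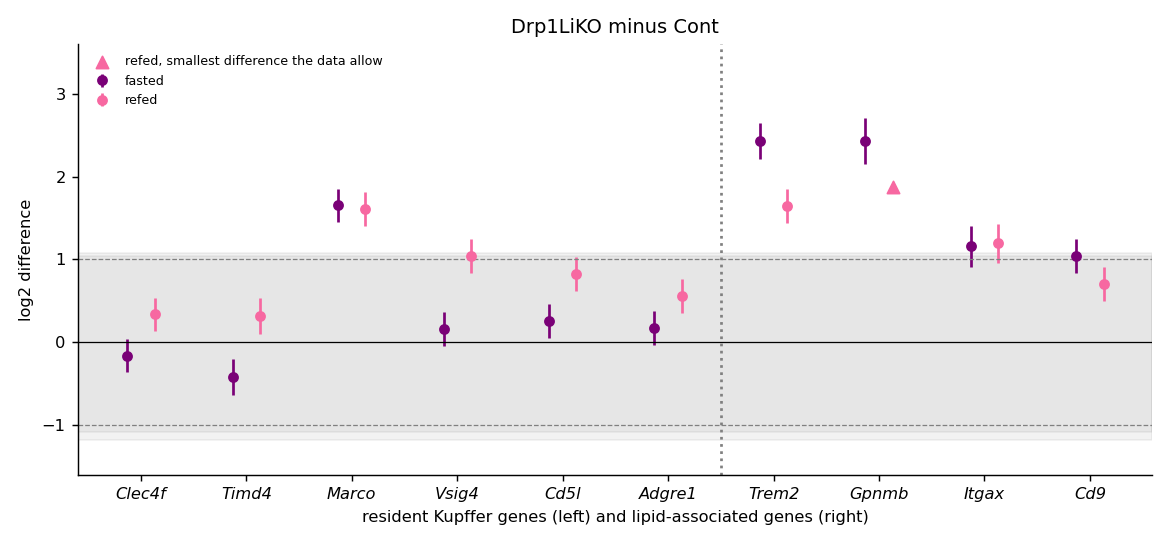
Difference between the Drp1LiKO and the Cont liver (log2, y axis) for each gene, in the fasted pair (dark) and the refed pair (light), with bars for the measurement SE. The shaded bands hold the middle 95% of the genes detected on all 4 arrays in each pair, and dashed lines mark 2-fold. The triangle is the smallest difference for Gpnmb in the refed pair on this scale, with its Cont side at the array's lowest detected signal. Trem2, Gpnmb and Marco stand clear of the bands in both pairs, and Clec4f and Timd4 lie on opposite sides of 0 in the 2 pairs.

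On the resident side, Marco encodes a class A scavenger receptor that binds bacteria and particles. Its probe is placed on chromosome 1 by the scanner files, from 122371115 to 122371134 (mm9), a span shorter than the probe. Its level was 2.41 in the fasted Cont, 4.06 in the fasted Drp1LiKO, 3.75 in the refed Cont and 5.37 in the refed Drp1LiKO liver. The Drp1LiKO livers exceeded both Cont livers, and the refed liver exceeded the fasted liver in each genotype. The difference was 1.65 (SE 0.20), or 3.14-fold, in the fasted pair and 1.61 (SE 0.20), or 3.06-fold, in the refed pair. No other of the 6 Kupffer genes was at least 2-fold higher in the fasted pair, and 51 other genes of the 14447 were at least as high as Marco in both.

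Vsig4 encodes the complement receptor CRIg, which binds fragments of C3 on particles. Its level was 3.47 in the fasted Cont, 3.63 in the fasted Drp1LiKO, 3.32 in the refed Cont and 4.36 in the refed Drp1LiKO liver. The refed Drp1LiKO liver stood above the other 3. The difference was 0.16 (SE 0.20) in the fasted and 1.04 (SE 0.20) in the refed pair. The fasted difference was 0.11 to 0.38 under 4 other scalings. The probe lies on chromosome X from 93442598 to 93442657 (mm9).

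Cd5l encodes AIM, a secreted inhibitor of apoptosis that macrophages release into the plasma. Its level was 5.12 in the fasted Cont, 5.38 in the fasted Drp1LiKO, 5.27 in the refed Cont and 6.09 in the refed Drp1LiKO liver. As with Vsig4, the refed Drp1LiKO liver was the highest. The difference was 0.25 (SE 0.20) in the fasted and 0.82 (SE 0.20) in the refed pair. The fasted difference depends on the scaling and was 0.58 with quantile normalization and 0.57 with the authors' normalized values. The probe lies on chromosome 3 from 87174823 to 87174882 (mm9).

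Adgre1 encodes the adhesion receptor F4/80, the general surface marker of mouse macrophages. It is the one gene of the group with 2 probes, both on chromosome 17 of mm9, at 57622868 to 57622927 and at 57620350 to 57620409. The brighter probe had a level of 0.74 in the fasted Cont, 0.90 in the fasted Drp1LiKO, 0.94 in the refed Cont and 1.49 in the refed Drp1LiKO liver. The other probe gave -0.51, -0.08, -0.45 and 0.51 in the same order. Both probes had their highest level in the refed Drp1LiKO liver, and they differed in size. The brighter one gave a difference of 0.17 (SE 0.20) in the fasted and 0.55 (SE 0.20) in the refed pair, and the other one gave 0.42 (SE 0.21) and 0.96 (SE 0.21). The sequence of the dimmer probe is shown because the choice between the 2 probes moves the value:

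Adgre1 second probe: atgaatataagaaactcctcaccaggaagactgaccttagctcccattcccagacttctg

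Clec4f encodes a C-type lectin that in mice is found on Kupffer cells and hardly elsewhere. Its probe lies on chromosome 6 from 83595281 to 83595339 (mm9), and its sequence is shown because Clec4f is the most specific resident marker of the group:

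Clec4f probe: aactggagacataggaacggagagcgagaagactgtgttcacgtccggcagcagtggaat

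The level of Clec4f was 4.01 in the fasted Cont, 3.85 in the fasted Drp1LiKO, 3.94 in the refed Cont and 4.28 in the refed Drp1LiKO liver. The 4 arrays were close to each other and the genotypes overlapped. The difference was -0.16 (SE 0.20) in the fasted pair, where its sign turned under 2 of 4 other scalings (range -0.22 to 0.08), and 0.34 (SE 0.20) in the refed pair.

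Timd4 encodes TIM-4, a receptor for phosphatidylserine on dying cells that is carried by Kupffer cells of embryonic origin. Its level was -1.46 in the fasted Cont, -1.88 in the fasted Drp1LiKO, -1.61 in the refed Cont and -1.30 in the refed Drp1LiKO liver. The fasted Drp1LiKO liver was the lowest and the refed Drp1LiKO liver the highest, so the genotypes overlapped here too. The difference was -0.42 (SE 0.21) in the fasted and 0.32 (SE 0.22) in the refed pair. The probe lies on chromosome 11 from 46657173 to 46657232 (mm9).

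Of the 6 Kupffer genes, 4 lay above 0 in the fasted pair and 6 in the refed pair, against 43.0% and 44.7% of all genes. The calls at 2-fold were 1 in the fasted pair and 2 in the refed pair, the second being Vsig4. Among genes detected on all 4 arrays, as these 6 were, 2.75% and 3.12% were called higher. Both Drp1LiKO arrays lay above both Cont arrays for 3 of the 6 Kupffer genes and for 4 of the 4 lipid-associated genes, and for 19.7% of the 16744 genes detected on at least 2 arrays. Adgre1 was read here from its brighter probe. On its other probe both Drp1LiKO livers, at -0.08 and 0.51, lay above both Cont livers, at -0.51 and -0.45. The range of the fasted differences was -0.42 to 1.65 for the Kupffer genes and 1.04 to 2.43 for the lipid-associated genes, so that Marco is the gene that makes the ranges overlap. In the refed pair the ranges overlapped further, at 0.32 to 1.61 and 0.70 to at least 1.87 on this scale.

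The 4 arrays were tested together by an additive limma model of genotype and feeding state, with 1 residual degree of freedom. Over these 16744 genes limma called 0 genes for genotype after Benjamini-Hochberg adjustment (0% called), and 4746 genes had an unadjusted p under 0.05. The smallest adjusted p was 0.0614 over all genes, and it was 0.0741 for Marco, 0.102 for Trem2, Gpnmb and Itgax, and 0.109 for Cd9. The other 5 genes had adjusted p values between 0.202 for Cd5l and 0.904 for Timd4.

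On the 14447 genes detected on all arrays, limma called 463 genes higher (3.2%) and 751 lower (5.2%) in the Drp1LiKO livers. On the resident side 1 of 6 genes was called, Marco, with an effect of 1.63 (SE 0.14) and an adjusted p of 0.0188. The SE of an effect comes from the limma fit, which reads any interaction as error, and is not the measurement SE. On the lipid-associated side 3 of 3 genes tested were called. Trem2 had an effect of 2.04 (SE 0.22) with an adjusted p of 0.0324, Itgax one of 1.18 (SE 0.14) with an adjusted p of 0.0337, and Cd9 one of 0.87 (SE 0.16) with an adjusted p of 0.0455. Gpnmb did not enter this fit, since its refed Cont signal was dim. The Kupffer genes not called had effects from -0.05 for Timd4 (adjusted p 0.891 with limma) to 0.60 for Vsig4 (adjusted p 0.158). The calls on Marco, Trem2, Itgax and Cd9 thus depend on the filter for dim genes.

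With an intensity trend in limma, 474 of 16744 genes (2.83%) were called, among them Marco (adjusted p 0.0242), Trem2 (adjusted p 0.0424) and Gpnmb (adjusted p 0.0483). With normexp background correction limma called 481 genes (2.87%), again with Marco (adjusted p 0.0191), Trem2 (adjusted p 0.0351) and Gpnmb (adjusted p 0.0404). Marco and Trem2 were called under these 3 of 8 limma settings and not under the other 5. Besides the first fit, those were quantile normalization (adjusted p 0.115 for Marco and 0.139 for Trem2), the median over the probes of a gene (0.112 and 0.126), genes detected on at least 1 array (0.26 for both), and limma without feeding state (0.369 and 0.21).

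**Figure D3:**
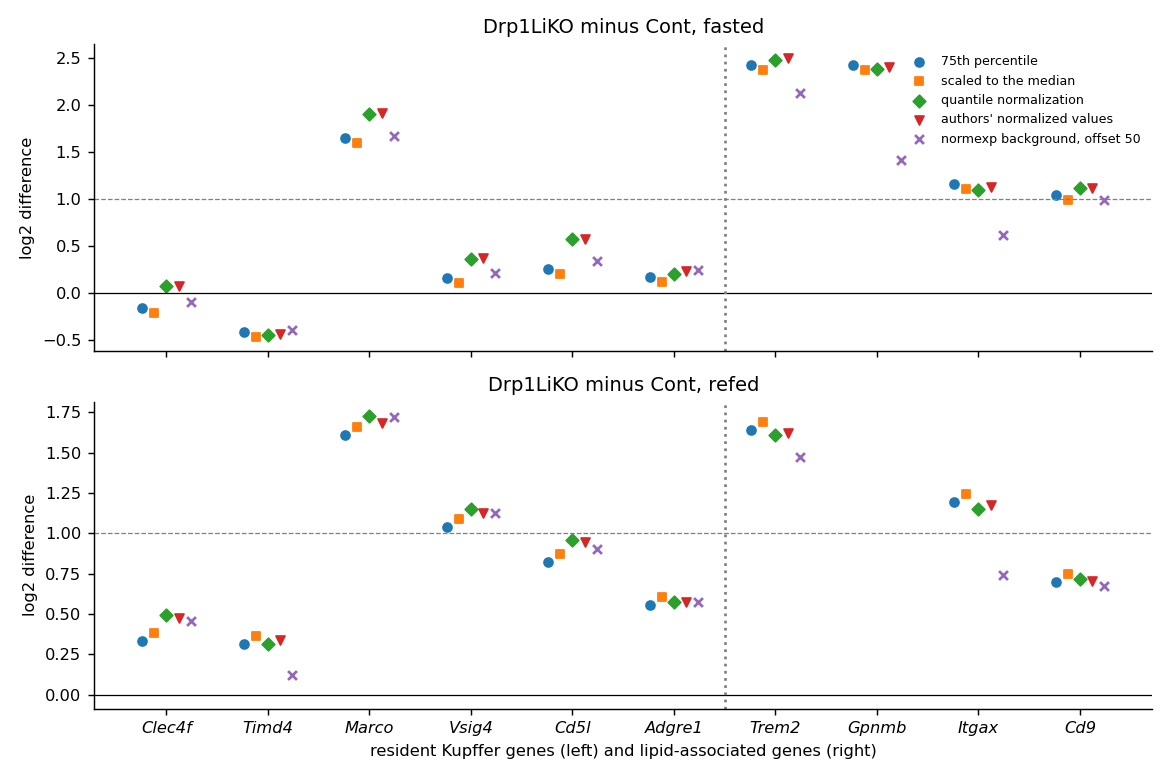
Difference between the Drp1LiKO and the Cont liver (log2, y axis) for each gene under 5 ways of putting the arrays on one scale, in the fasted pair (top) and the refed pair (bottom). The dashed line marks 2-fold, and Gpnmb is left out of the refed panel because its Cont signal was not well above background. Marco and Trem2 stay above 2-fold under every scaling, Itgax falls below it with normexp, and Clec4f in the fasted pair crosses 0.

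Refeeding gave a different order of the genes. Marco had the largest difference between the refed and the fasted liver, 1.34 (SE 0.20) in Cont and 1.30 (SE 0.20) in Drp1LiKO. Trem2 differed by 1.03 (SE 0.22) in Cont and by 0.25 (SE 0.20) in Drp1LiKO. These 2 genes were the members called at least 2-fold higher in Cont, and Marco was the one called in Drp1LiKO. Trem2 in Cont was at 0.86 with normexp and Marco in Drp1LiKO at 0.95 with the authors' normalized values, both below 2-fold. Over all genes, 4.47% were called higher in Cont and 5.61% in Drp1LiKO.

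The other resident genes had differences in the Cont liver from -0.15 for Timd4 and Vsig4 to 0.20 for Adgre1. In the Drp1LiKO liver all 6 lay above 0, from 0.43 for Clec4f to 1.30 for Marco, with a median of 0.65 against 0.04 in Cont. With quantile normalization the Drp1LiKO values were 0.18 for Clec4f, 0.29 for Cd5l and 0.50 for Vsig4, and the median was 0.52. The medians of all genes were 0.11 in Cont and 0.08 in Drp1LiKO. Without Marco the Cont median was -0.07, and it was -0.09 with quantile normalization.

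The lipid-associated genes had no common direction on refeeding. Itgax was higher by 0.50 (SE 0.27) in Cont and by 0.54 (SE 0.21) in Drp1LiKO. Cd9 was lower, at -0.30 (SE 0.21) and -0.64 (SE 0.20). Gpnmb was lower in the refed Drp1LiKO liver by a difference of -0.84 (SE 0.21). In Cont its refed signal was at least 1.21-fold lower on this scale. With normexp the differences of Gpnmb were -0.21 in Cont and -0.59 in Drp1LiKO. The additive limma model called 0 of 16744 genes for feeding state (0% called), with 4414 genes at an unadjusted p under 0.05, and on the 14447 genes it called 15 (0.104%), none of them a member. Marco came nearest there, with an adjusted p of 0.0632 in limma.

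**Figure D4:**
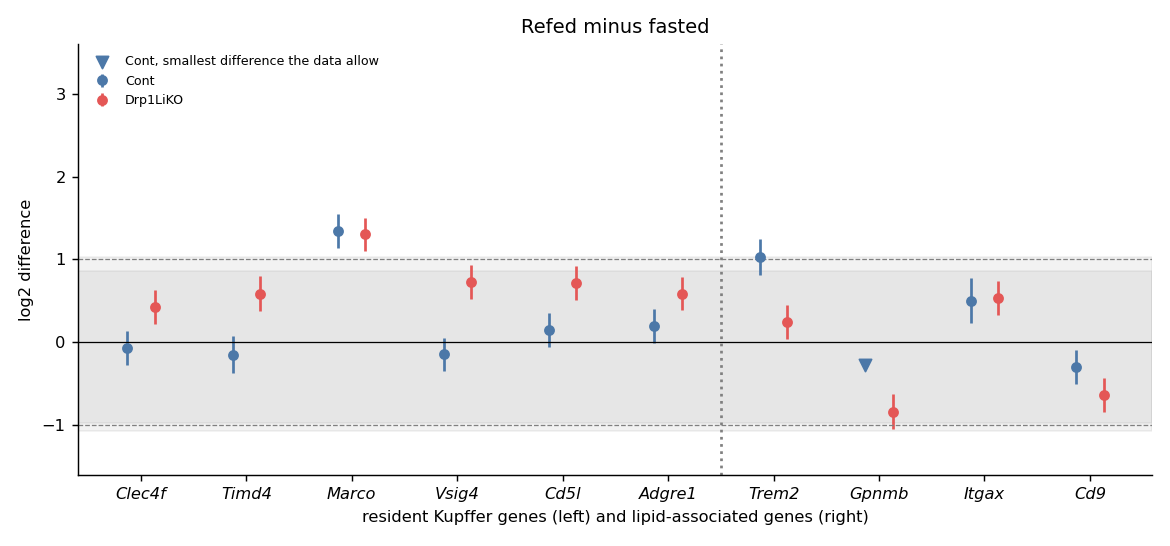
Difference between the refed and the fasted liver (log2, y axis) for each gene in Cont (blue) and Drp1LiKO (red), with bars for the measurement SE and shaded bands for the middle 95% of genes detected on all 4 arrays. The downward triangle is the smallest difference for Gpnmb in Cont on this scale, with its refed side at the array's lowest detected signal. Marco lies near 1.3 in both genotypes, and the other Kupffer genes are near 0 in Cont and between 0.43 and 0.73 in Drp1LiKO.

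For several genes the genotype difference was not of the same size in both pairs, which could not be tested. The refed minus the fasted difference was 0.88 (SE 0.29) for Vsig4, 0.73 (SE 0.31) for Timd4 and 0.57 (SE 0.29) for Cd5l. It was -0.79 (SE 0.30) for Trem2. For Marco and Itgax the 2 pairs gave nearly equal differences, -0.04 (SE 0.29) and 0.03 (SE 0.34) apart.

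Other genes of the same cells were read from lists. Among 21 other Kupffer-enriched genes, 19 were measured. Their median difference was 0.10 in the fasted and 0.28 in the refed pair, and none of them was 2-fold higher in the fasted pair. In the refed pair 1 was, the haem oxygenase gene Hmox1, at 1.02. The gene with the largest difference over both pairs was Spic, a transcription factor of macrophages that recycle iron, at 0.81 and 0.99. The complement genes C1qa, C1qb and C1qc lay at 0.10, 0.21 and 0.01 in the fasted pair and at 0.54, 0.61 and 0.50 in the refed pair, so like Vsig4 and Cd5l they lay higher in the refed pair. In limma on the 14447 genes, 2 of 19 were called higher, Hmox1 and Spic, and 1 lower, the chemokine gene Ccl24.

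Among 26 other lipid-associated genes, the median difference was 0.35 over the 26 measured in the fasted pair and 0.57 over the 25 measured in the refed pair. At least 2-fold higher were 6 in the fasted and 5 in the refed pair, with 1 lower in the refed pair, Lgals1 at -1.42. The shares called higher over all genes, with dim sides at their measured signals, were 8.06% and 8.05%. Higher in both were Lgals3, which encodes galectin-3, at 1.67 and 1.21, and Ctsl, which encodes the lysosomal protease cathepsin L, at 1.12 and 1.46. Ctsl had high levels in the Cont livers already, 6.27 fasted and 6.22 refed. Which cells of the liver gave the signal of these genes was not tested. In limma on the 14447 genes, 6 of 24 were called higher: Cd63, Clec7a, Ctsl, Lgals3, Lpl and Spp1. Spp1 is also on the list of cholangiocyte markers. Apoe, a lipid carrier that hepatocytes also make in quantity, lay at -0.65 and -0.59. Tyrobp, the adaptor that carries the Trem2 signal, differed by -0.05 in the fasted and 0.61 in the refed pair.

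The other genes around Trem2 differed less than the receptor. Of 10 genes of Trem2 signalling and its ligands, none was 2-fold higher in either pair, with medians of 0.14 and 0.42. In the fasted pair 1 was 2-fold lower, Vav3 at -1.09. The highest values over both pairs were those of Inpp5d, a phosphatase that damps the signal, at 0.50 and 0.84. Of 20 efferocytosis and scavenger receptor genes, 18 were measured, with medians of 0.10 and -0.04. The scavenger receptor gene Msr1 lay at 0.51 and 1.22. Limma on the 14447 genes called none of the 8 Trem2 signalling genes and none of the 16 efferocytosis genes it tested. An unadjusted limma p under 0.05 was found for 3 and 8 of them, and for 4840 of all 14447 genes.

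Growth factors and regulators of macrophages had medians of 0.17 and 0.12 over 19 of 20 genes measured. Above 0 were 14 in the fasted and 11 in the refed pair, against 43.0% and 44.7% of all genes. At least 2-fold higher were 0 in the fasted and 1 in the refed pair. Csf1r, the receptor that macrophages need to survive, lay at -0.35 in the fasted and 0.24 in the refed pair. Its 3 probes ranged from -0.35 to 0.20 and from 0.24 to 0.68, so the fasted sign depends on the probe. Dll4, a Notch ligand of the sinusoids, had the largest value of this list by the raw signals, but its fasted Cont signal was dim. Its fasted difference was at least 0.66 and its refed difference was -0.79.

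Of 18 genes of macrophages derived from monocytes, 16 were measured in the fasted and 17 in the refed pair, with medians of 0.80 and 0.28. With normexp the medians were 0.09 and 0.04, below those of the resident genes at 0.22 and 0.74, so the order of these groups in the fasted pair depends on the background correction. At least 2-fold higher were 6 in the fasted and 7 in the refed pair, 5 of them in both. Over all genes, with dim sides at their measured signals, 8.06% and 8.05% were called higher. Below 0 were 6 genes of the list in each pair. The summed level over 14 genes was 7.25 and 7.30 in the Cont and 6.86 and 7.07 in the Drp1LiKO livers, so the list did not move together. Ms4a7, a membrane protein of recruited macrophages, lay at 2.09 and 1.99. Cx3cr1, a chemokine receptor of monocytes, lay at 1.82 and 1.06, and Cd14, the co-receptor for lipopolysaccharide, which is also on the list of general macrophage genes, at 1.60 and 1.56. Ly6c1 lay at 1.11 and 1.23. Limma on the 14447 genes called 6 of 14 higher and 1 lower, Itgam, whose 3 probes disagreed, from -3.97 to 0.34 in the fasted and from -0.66 to 0.19 in the refed pair. The class II genes H2-Aa, H2-Ab1 and Cd74 did not share the shift, with values from -0.40 to -0.09 in the fasted and from -0.70 to -0.32 in the refed pair.

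**Figure D5:**
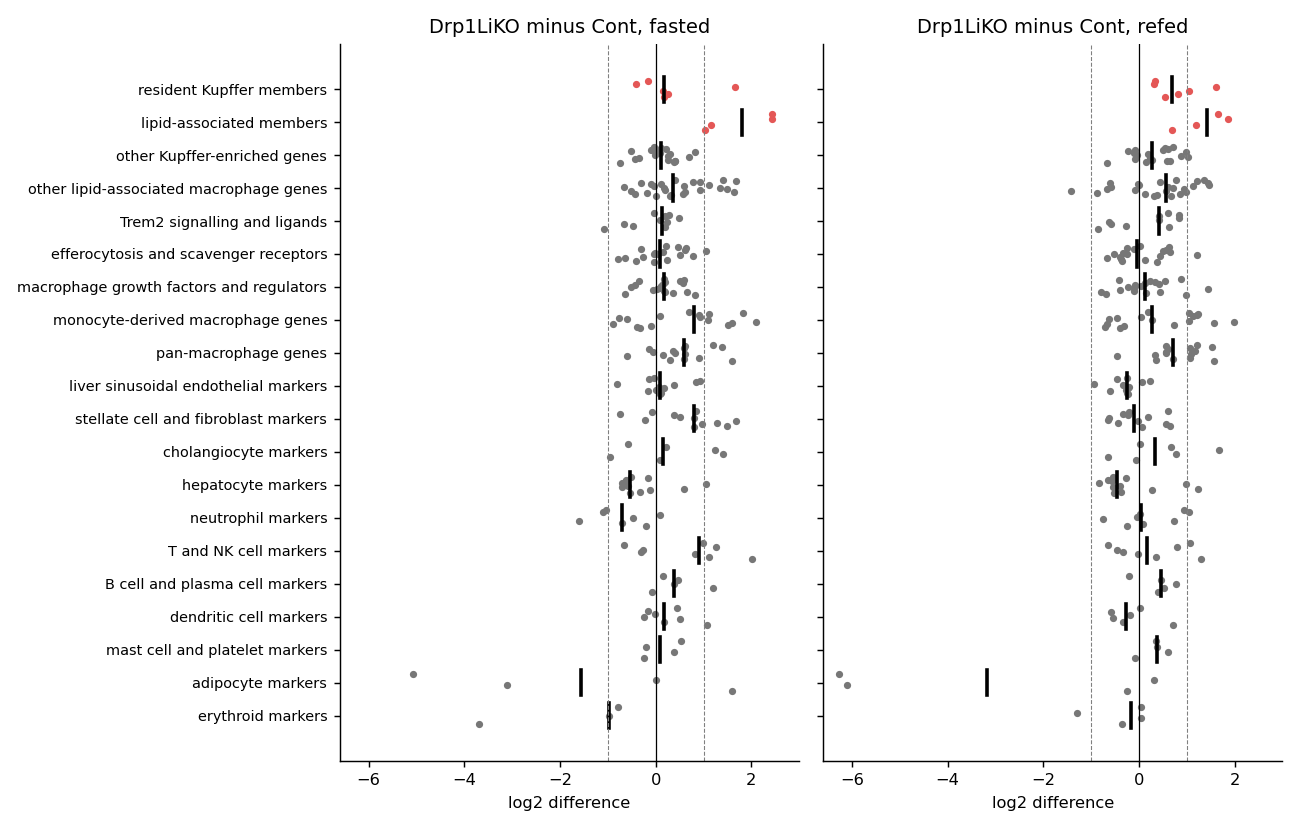
Difference between the Drp1LiKO and the Cont liver (log2, x axis) in the fasted pair (left) and the refed pair (right) for every measured gene of 20 lists (y axis), with the members in red, other genes in grey and black bars for the list medians. A gene with 1 dim side is drawn with that side at its bound, and dashed lines mark 2-fold. The lipid-associated members have medians of 1.79 and 1.42, and the resident members 0.17 and 0.69.

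General macrophage genes were higher as well, and the 10 members can be read relative to them. Of 15 such genes, 12 lay above 0 in the fasted and 14 in the refed pair, with medians of 0.59 and 0.71. Lyz2, which encodes lysozyme, lay at 1.38 and 1.53, and Ptprc, which encodes CD45 of all leukocytes, at 1.20 and at least 1.22. Relative to that median, a comparison chosen after seeing the data, 5 of the 6 Kupffer genes were below 0 in the fasted pair, from -0.33 for Cd5l to -0.75 for Clec4f and lowest for Timd4, and Marco was at 1.07. The 4 lipid-associated genes stayed above 0 in the fasted pair, from 0.46 for Cd9 to 1.84 for Trem2. In the refed pair Clec4f, Timd4 and Adgre1 were below 0, at -0.38, -0.40 and -0.16, and Cd9 was at -0.01. With normexp the medians of the general macrophage genes were 0.28 and 0.49, and 4 Kupffer genes in the fasted and 2 in the refed pair were below them, Clec4f and Timd4 in both. With quantile normalization Cd5l was at 0.03 in the fasted pair, and 4 were below.

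Hepatocyte markers had lower medians in Drp1LiKO on this scale, -0.53 in the fasted and -0.46 in the refed pair, with 10 and 9 of 12 below 0. With quantile normalization these medians were 0.01 and -0.07, so this shift depends on the scaling. The summed level of the 12 markers was 11.83 and 12.05 in the Cont and 11.31 and 11.53 in the Drp1LiKO livers. Relative to the hepatocyte markers, all 10 members lay above 0 in both pairs on this scale, with Timd4 at 0.11 in the fasted pair. With quantile normalization and with the authors' normalized values Timd4 was below 0 in the fasted pair, at -0.46 and -0.45. The part of the hepatocyte share in the members' values was not tested.

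Other cell types of the liver were read the same way, and their part in the members' values was not tested. The medians of the sinusoidal endothelial markers were 0.08 and -0.24 over 12 genes, with none 2-fold different. Kdr had the largest mean absolute difference among them, at -0.81 and -0.93, and limma on the 14447 genes called it lower. Stellate cell and fibroblast markers had medians of 0.80 in the fasted and -0.11 in the refed pair, with 3 of 12 at least 2-fold higher in the fasted pair, and their summed level over 11 genes lay between 6.44 and 6.74. The T and NK cell markers had medians of 0.90 and 0.17 over 8 of 12 genes, and Ccl5, a chemokine of these cells, was at 2.02 and 1.29. Their summed level was 4.65 and 4.77 in the Cont and 4.71 and 4.64 in the Drp1LiKO livers. With normexp the T and NK cell medians were 0.26 and -0.10 and the stellate medians 0.52 and -0.16.

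Neutrophil markers had medians of -0.70 and 0.05 over 7 and 8 of 10 genes, with summed levels between 5.85 and 6.57. B cell and plasma cell markers had medians of 0.37 and 0.46 over 5 of 8 genes, and of -0.08 and 0.08 with normexp. Cholangiocyte markers had medians of 0.15 and 0.35 over 6 of 8 genes, or -0.11 and -0.01 with normexp, and Sox9 lay at 1.24 and at least 1.67. Erythroid markers had medians of -0.97 and -0.16 over 3 and 4 of 6 genes. Adipocyte markers had medians of -1.55 and -3.17 over 4 of 8 genes, which did not move together. In the fasted pair 2 were higher and 2 lower, and in the refed pair 1 was higher and 3 lower. The lowest were Cfd, which encodes adipsin, at -5.07 and -6.27, and Cidea at -3.12 and -6.10. Cidec was the highest in the fasted pair, at 1.59.

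The genes whose 4 levels ran closest to the members were found by distance over the 14447 genes, after each gene was centred on its mean over the 4 arrays. Nearest to the mean of the Kupffer genes was Snhg6, a host gene of small nucleolar RNA, at a distance of 0.0134 log2 units. Shisa5 followed at 0.0314 and Rnaseh2b at 0.0542, with 2 probes without a gene name among the nearest 5. Nearest to the mean of the lipid-associated genes were Arhgef16 at 0.340, Sla at 0.344, Tceal8 at 0.359, Dock10 at 0.363 and Snhg1 at 0.375. The distances rest on 4 points per gene, and the lipid-associated mean includes the dim Gpnmb signal of the refed Cont liver.

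Promoter sequences were taken from RefSeq for Marco and Trem2, the gene of each side that limma called under the most settings, with Clec4f and Gpnmb beside them for contrast. They hold the 250 bases before the start of the gene in GRCm38.p6, on the strand of the gene. A promoter was listed for 9 of the 10 genes, all but Adgre1. Capitals mark the letters GAGGAA, the core bound by the macrophage factor PU.1, on either strand, where the other strand reads TTCCTC. The Marco promoter lies on chromosome 1 from 120505025 to 120505274 and that of Trem2 on chromosome 17 from 48346151 to 48346400. The Clec4f promoter lies on chromosome 6 from 83656117 to 83656366 and that of Gpnmb on chromosome 6 from 49036268 to 49036517.

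Marco promoter: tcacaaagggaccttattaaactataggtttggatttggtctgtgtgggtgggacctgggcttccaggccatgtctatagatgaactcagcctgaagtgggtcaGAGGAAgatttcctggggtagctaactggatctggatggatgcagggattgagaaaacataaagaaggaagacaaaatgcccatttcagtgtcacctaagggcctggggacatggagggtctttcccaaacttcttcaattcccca

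Trem2 promoter: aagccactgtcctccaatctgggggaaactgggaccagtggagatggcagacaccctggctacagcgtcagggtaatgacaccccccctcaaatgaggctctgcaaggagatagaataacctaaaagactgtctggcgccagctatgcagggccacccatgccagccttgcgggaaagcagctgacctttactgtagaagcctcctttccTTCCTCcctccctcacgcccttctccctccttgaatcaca

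Clec4f promoter: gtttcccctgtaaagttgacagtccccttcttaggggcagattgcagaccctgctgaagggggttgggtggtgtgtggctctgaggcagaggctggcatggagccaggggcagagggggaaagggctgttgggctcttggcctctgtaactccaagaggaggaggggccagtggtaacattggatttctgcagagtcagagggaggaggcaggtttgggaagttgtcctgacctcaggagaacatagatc

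Gpnmb promoter: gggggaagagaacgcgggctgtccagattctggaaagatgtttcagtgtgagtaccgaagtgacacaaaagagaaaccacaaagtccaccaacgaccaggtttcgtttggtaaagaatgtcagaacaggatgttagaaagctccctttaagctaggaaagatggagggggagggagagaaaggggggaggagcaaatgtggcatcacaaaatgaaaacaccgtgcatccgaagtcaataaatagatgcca

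The letters GAGGAA were found in 4 of the 9 promoters, those of Marco, Vsig4, Cd5l and Trem2, and in 23.3% of 32851 promoters of the same length. The E-box CACGTG, which factors of the lysosome programme bind, was in 0 of the 9 and in 6.02% of all. The E-box CATGTG was in 2, Timd4 and Cd9, and in 12.3% of all. The AP-1 letters TGAGTCA were in 1, Itgax, and in 4.46% of all. The promoters with GAGGAA belong to 3 resident genes and 1 lipid-associated gene.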

How the data were processed

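Total RNA of mouse liver was hybridized to 4 one-color Agilent Whole Mouse Genome 4x44K v2 arrays. Per the labels the authors extracted with Feature Extraction 9.5.1.1, and the file headers give 10.7.1.1. The study's text names another array format and RNA kit. As intensity, the processed signals in the scanner output deposited by the authors were used, which are linear and background-subtracted within each array. The authors' deposited table of normalized intensities was used as an alternative, after a log2 transform.

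The log2 signals were reduced by the 75th percentile of each array, after control spots were dropped. The 37 probes with outlier flags were dropped after this scaling. A gene with several probes was read from the one detected on most arrays, ties going to the brighter on average. Of 22488 accessions, 21021 were matched to RefSeq (GRCm38.p6). Probe positions are those of mm9 in the files. A dim side of a pair was set to the array's lowest detected signal, or to its own if that was higher. A difference given as at least a value rests on this bound and holds on this scale only. Summed levels are log2 of the sum over genes detected on all 4 arrays.

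Limma 3.58.1 in R 4.3.3 fitted genotype and feeding state as additive terms, adjusted by Benjamini-Hochberg, and reads any interaction as error. It was also run on simulated data with equal noise for all genes and no interaction, which does not check the calls on these data. The number of arrays limits the precision. Other software was Python 3.11.15, numpy 2.4.6, pandas 2.3.3 and matplotlib 3.10.9.

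The members and the 20 gene lists were chosen with earlier results of these data known, so no list was tested. Named genes outside the members were those at least 2-fold different the same way in both pairs. For some lists only, the gene with the largest mean absolute difference was named as well. Hmox1, the C1q genes, Ccl24, Lgals1, Apoe, Tyrobp, Csf1r, Vav3, the class II genes and the genes limma called were named after their values were seen. Also tried were quantile normalization, scaling to the median, normexp with an offset of 50, the authors' values, the median of a gene's probes, other detection filters, a 1.5-fold threshold and other limma models. Reading dim sides at their bound, leaving out Cd9 or Marco, and values relative to hepatocyte or pan-macrophage genes, under each scaling, were chosen after seeing the data.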

Additional observations from a re-analysis of the deposited data

Results flagged for a closer look

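In 5 cases a gene went in opposite directions under the same contrast in the 2 settings, and none of these differences was tested, since each setting has 1 array per group. The genotype difference of Clec4f was -0.16 in the fasted and 0.34 in the refed pair, and that of Timd4 was -0.42 and 0.32. The refeeding difference of Clec4f was -0.07 in Cont and 0.43 in Drp1LiKO, that of Timd4 was -0.15 and 0.58, and that of Vsig4 was -0.15 and 0.73. Their measurement SEs lie between 0.20 and 0.23, so all 5 negative values are within 2 SEs of 0. In each case the refed Drp1LiKO liver had the highest level of the 4.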

How the results depend on the processing

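No paired analysis was possible because the labels give each group 1 replicate number, so that there are no pairs beyond the feeding state, which is a term of the additive limma fit. At 2-fold, 2390 genes differed in the fasted pair, 2509 in the refed pair, 1693 on refeeding in Cont and 2339 in Drp1LiKO. In the same order, 928, 1079, 732 and 893 differed with normexp, 875, 1028, 573 and 848 among genes detected on all 4 arrays, and 5085, 5256, 3576 and 5942 at 1.5-fold. Without a filter 5057 differed in the refed pair, 3175 on refeeding in Cont and 3810 in Drp1LiKO. The median of the lipid-associated genes in the fasted pair was 1.20 with normexp, 1.16 on genes detected on all 4 arrays, which leaves out Gpnmb, and 2.43 without Cd9. In the refed pair it was 0.89, 1.19 and 1.64. On refeeding, the median of the Kupffer genes in Cont turned negative with quantile normalization (-0.089), the authors' values (-0.097) and without Marco (-0.069). That of the lipid-associated genes was 0.50 in Cont, and turned positive at 0.25 in Drp1LiKO, both on the all-array filter and without Cd9. Limma called 0 genes for genotype on those detected on at least 2 arrays, and also with quantile normalization, with the median over probes and on those detected on at least 1. It called 474 with an intensity trend, 481 with normexp, 1214 on the all-array filter and 1 without feeding state, and for feeding state 15 on the all-array filter. The cause of these changes was not tested beyond the change of genes or samples that the settings themselves make. The feeding effect of Clec4f in limma was -0.025 with quantile normalization and above 0 in the other fits, and passed in none. Of the other values, 81 of the summaries stayed within 1.5 times or within the error, 305 single-gene values kept their sign and stayed within the measurement SE or on their side of the limma threshold, 64 moved by more than the measurement SE, and 10 single-gene tests newly passed in limma. Gpnmb was not detected in the refed Cont liver, and dim spots limit it and Itgax.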
